A study of Rattus norvegicus with 138 samples.

Results

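The muscles described here are the tibialis anterior (TA) muscles of the uninjured leg of rats that ran, set against the same muscle of rats that did not run, at 3 and 7 days after volumetric muscle loss (VML) to the other leg. They were chosen by their labels: NoVML muscle, Run or NoRun, day 3 or day 7, NoRepair or MMG. The rule gave 8 muscles of running rats and 16 of non-running rats, and 22 muscles (8 and 14) remained after libraries with fewer than 7000 gene symbols above 1 TPM (transcript abundance, corrected for length and scaled to the same total in every library) were dropped. The series holds 138 libraries, and 114 mapped muscles have a library that passed the same limit. All rats were inbred male Lewis rats of about 4 months, and all carried a VML defect, a full-thickness biopsy punch through the middle of the left TA. In MMG rats that defect was filled with autologous minced muscle graft, and in NoRepair rats it was left empty, so the muscles compared here were neither injured nor grafted themselves. Running muscles came from 4 rats at day 3 and 4 at day 7, and non-running muscles from 4 rats at day 3 and 10 at day 7; NoRepair and MMG rats were present in every group. How, how long and from when the rats ran is not given in the sources used here, and the study's text does not describe running.

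The TA is the ankle dorsiflexor of the shin and in the rat consists mostly of fast fibres that burn glycogen and glucose. In such muscle, activity and innervation set the expression of many genes. The acetylcholine receptor subunits, the receptor kinase Musk and the myogenic factor Myog are kept low in active, innervated fibres and are known to rise when nerve input or activity is lost. Gadd45a, Runx1 and Cdkn1a are known to rise in the same state. Contraction is known to induce immediate early genes such as Fos and, over time, genes of oxidative metabolism. A muscle opposite a wound is also exposed to the systemic response to surgery, through hormones, cytokines and changed use of the limb.

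Every muscle in the comparison had 1 library left. The kept libraries had 8535 to 9736 symbols above 1 TPM, and the 5 dropped ones 901 to 4860. Among the dropped were second libraries of the running rats 004, 006 and 008, with 80.5, 81.4 and 84.0% of TPM in ribosomal RNA. The mean number over both days differed by 75.5 symbols between running and non-running muscles (exact permutation test of whole muscles within day, two-sided, p = 0.424), and the share of ribosomal RNA by 0.0523 percentage points (p = 0.592). Fast fibre markers (19 genes) summed to between 198500 and 306800 TPM in these muscles, and none of them was at 0. Running rats carry the numbers 001 to 008 and non-running rats 010 to 017 and 105 to 128, so that the number range and running cannot be told apart. The labels do not say whether that range was a batch. Neutrophil markers (19 genes, Cxcr1 at 0 throughout) set 1 muscle apart: they summed to 14.4 TPM in the non-running day 3 rat 017 and to between 67.6 and 182 TPM in the other 7 day 3 muscles. Red cell markers (14 genes) ranged from 5320 to 53590 TPM in running and from 1272 to 9671 TPM in non-running muscle at day 3, and from 1859 to 30210 and from 1994 to 41710 TPM at day 7. In whole muscle, fewer cells of a type and less RNA per cell cannot be told apart.

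With day as a covariate, no gene passed the threshold over both days together. The threshold was an adjusted p under 0.05 and a log2 fold change beyond 1, tested with limma on log2(TPM + 1), and it was passed by 0 of 9749 genes (0%), while 2 genes passed the adjusted p alone (0.0205%) and 1445 had an unadjusted p under 0.05. At day 3 alone, 25 genes passed (0.256%), 22 of them higher and 3 lower in running muscle. At day 7, 0 passed (0%), with 1145 at an unadjusted p under 0.05 and a smallest adjusted p of 0.20. The difference between the 2 days was itself tested for every gene, and 0 genes passed (0%), with a smallest adjusted p of 0.0653 and 1061 genes at an unadjusted p under 0.05. Thus the genes called at day 3 are not shown to respond differently at day 7. The count for that test rose in some other settings: to 6 under median-of-ratios scaling of the TPM values (Gadd45a, Kcnn3, Lipg, Slco4a1, Tal2 and Ttc9, named after their values were seen, of which Kcnn3 and Tal2 were not called at day 3), to 12 without rat 006, to 1 with repair as a further covariate, to 2 without rat 105, and to 1 without rat 010 or rat 106. All p-values measure the spread between these rats.

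Among the genes called higher at day 3 were Gadd45a, Cdkn1a, Bid and Cd82, set side by side here after their values were seen. Of the 40 genes on the cell cycle list only 15 were tested, and at day 3 these had 0 passing and a median of -0.002. Under median-of-ratios scaling 1 gene of the list passed downward, beside 244 of all 9996 tested genes. Gadd45a, a stress-induced growth arrest gene, was at 41.61, 55.39, 43.43 and 63.05 TPM in the non-running muscles and at 200.4, 169.8, 159 and 94.15 TPM in the running ones. The lowest running muscle was above the highest non-running one. The log2 difference was 1.57 ± 0.22 (SE; n = 4 and 4, adjusted p = 0.00106). Cdkn1a, the cyclin-dependent kinase inhibitor p21, was at 5.39, 9.39, 7.69 and 8.42 TPM without running and at 22.59, 32.21, 42.09 and 14.24 TPM with it, again with no overlap (1.64 ± 0.31, adjusted p = 0.0110). Bid, a BH3-only member of the Bcl-2 family that promotes apoptosis, followed the same pattern, with 3.27 to 7.17 TPM against 7.36 to 29.19 TPM, where the lowest running muscle only just cleared the highest non-running one (1.64 ± 0.31, adjusted p = 0.0110). Cd82, a tetraspanin of the cell surface, was at 8.1 to 11.4 TPM against 12.2 to 43.05 TPM (1.15 ± 0.23, adjusted p = 0.0153). For Gadd45a, Cdkn1a, Bid and Cd82 the lowest running muscle was the same, that of rat 006.

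The second group holds genes of the neuromuscular junction and of the fibre's response to nerve input. Myog, a basic helix-loop-helix factor of muscle differentiation, was at 18.65, 19.64, 24.27 and 19.45 TPM in non-running muscles and at 55.14, 87.06, 81.68 and 33.36 TPM in running ones, without overlap. Its difference was 1.52 ± 0.25 (adjusted p = 0.00384). Musk, the kinase that clusters acetylcholine receptors under the nerve terminal, stayed near the detection filter without running (0.89, 0.61, 1.11 and 0.66 TPM) and reached 3.25, 2.93, 5.4 and 2.5 TPM with it. This was a log2 difference of 1.28 ± 0.20 (adjusted p = 0.0019), which the added pseudocount of 1 makes smaller at such low values. Chrnb1, the beta subunit of the muscle acetylcholine receptor, rose by less than the fold limit, from 41.52, 46.11, 38.83 and 35.89 to 79.93, 62.19, 70.48 and 58.58 TPM (0.72 ± 0.11, adjusted p = 0.0019). Runx1, a transcription factor induced in denervated fibres, rose from 4.12, 3.04, 2.84 and 2.33 to 6.35, 8.01, 8.45 and 3.65 TPM, with the muscle of rat 006 below the highest non-running one (0.86 ± 0.21, adjusted p = 0.0358). Of the 23 genes on the neuromuscular list, 19 were tested. At day 3, 4 of them passed the adjusted p upward and 0 downward, against 0.708% and 0.523% of all tested genes. The median of the list was 0.18, beside -0.02 over all tested genes.

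Over the whole list, those 4 included, 11 of 19 tested genes were above 0 at day 3. Chrnd, the delta subunit, was at 6.25, 6.86, 5.24 and 5.38 TPM without and at 24.57, 11.11, 17.01 and 16.59 TPM with running, no overlap, yet missed the adjusted threshold (1.36 ± 0.38, adjusted p = 0.0754). Chrna1, the alpha subunit, stood at 6.92 to 8.94 TPM against 10.29 to 24.78 TPM (0.71 ± 0.35, adjusted p = 0.362). Ncam1, an adhesion molecule that spreads over denervated fibres, stood at 2.36 to 3.52 TPM against 3.38 to 7.7 TPM (0.71 ± 0.22, adjusted p = 0.111). The plot of levels by muscle shows Myog, Musk, Chrnb1 and Chrnd beside Gadd45a, Cdkn1a, Mt2A, Sln and Pfkm.

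**Figure D1:**
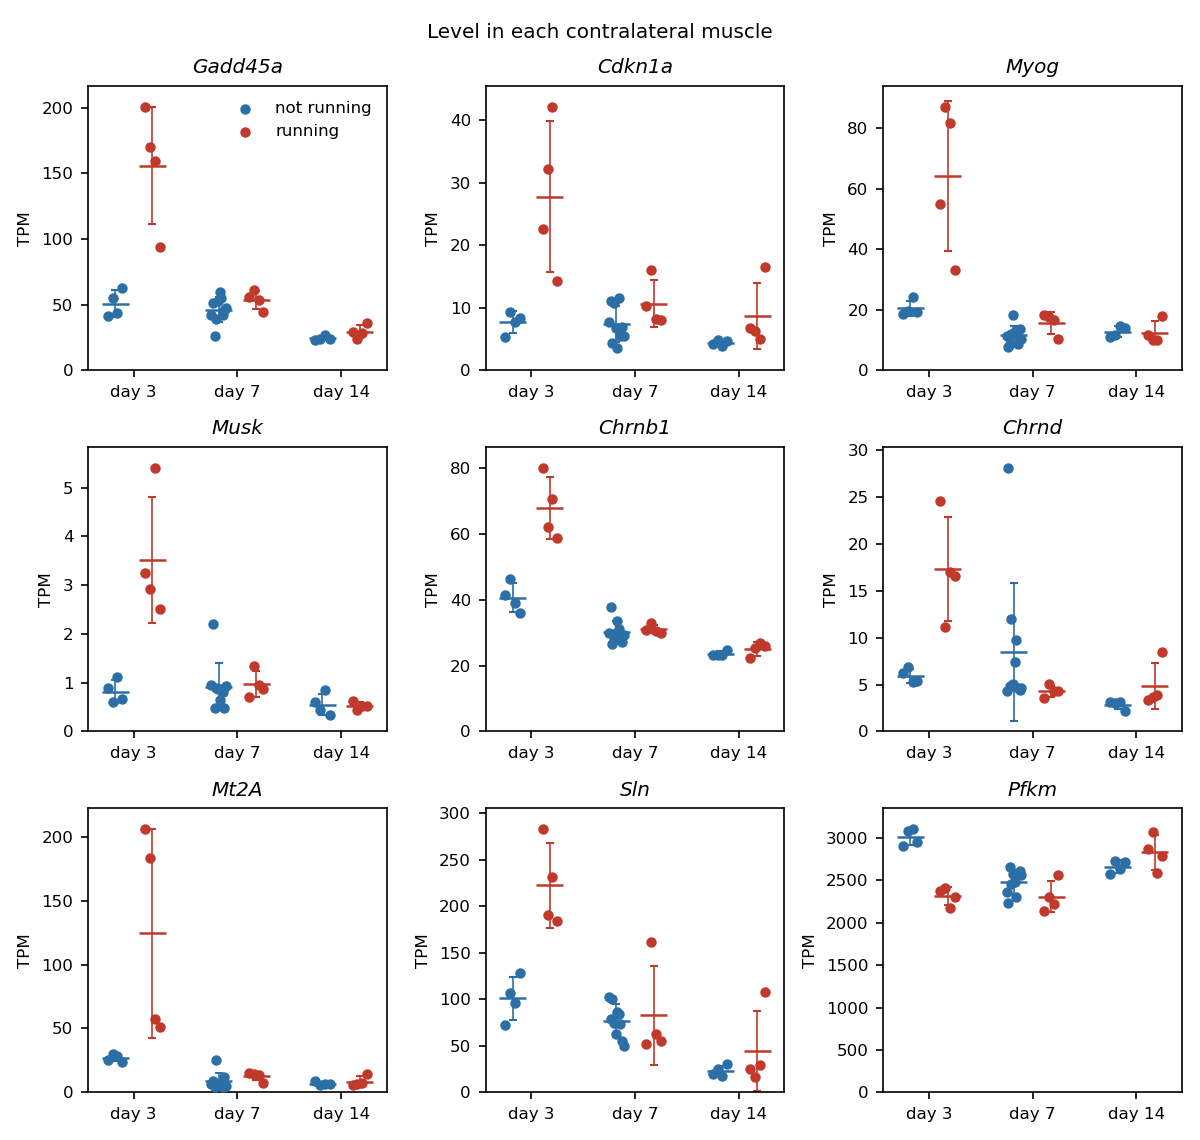
TPM (vertical axes, from 0) of 9 genes in each contralateral muscle at days 3, 7 and 14, not running in blue and running in red; points are muscles, lines are means and bars are SD. At day 3 the 4 running muscles lie above all 4 non-running muscles for the first 8 genes and below them for Pfkm, while at days 7 and 14 the groups overlap, apart from Cdkn1a and Chrnd at day 14.

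The promoters of the 4 neuromuscular genes that passed are shown because their products act on, or answer to, the same junction. Myog and its relatives bind E-boxes, the letters CANNTG. The RefSeq windows (GRCr8) run over the 250 bases before the start of the gene, 5′ to 3′ on its own strand, with every CANNTG in capitals (the motif reads the same on both strands). The windows are chr13:48297226-48297475, plus strand for Myog, chr5:77853486-77853735, plus strand for Musk, chr10:55015108-55015357, minus strand for Chrnb1 and chr11:45421326-45421575, minus strand for Runx1.
Myog: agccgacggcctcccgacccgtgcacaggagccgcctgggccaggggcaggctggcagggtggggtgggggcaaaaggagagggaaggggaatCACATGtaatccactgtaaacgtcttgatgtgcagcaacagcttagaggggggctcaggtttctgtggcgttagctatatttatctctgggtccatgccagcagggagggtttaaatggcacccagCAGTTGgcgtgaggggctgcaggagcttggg
Musk: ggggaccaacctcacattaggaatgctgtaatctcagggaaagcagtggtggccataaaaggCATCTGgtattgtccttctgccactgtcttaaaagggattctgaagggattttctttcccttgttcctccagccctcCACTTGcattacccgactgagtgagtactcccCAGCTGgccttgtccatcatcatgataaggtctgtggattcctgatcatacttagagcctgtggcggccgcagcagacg
Chrnb1: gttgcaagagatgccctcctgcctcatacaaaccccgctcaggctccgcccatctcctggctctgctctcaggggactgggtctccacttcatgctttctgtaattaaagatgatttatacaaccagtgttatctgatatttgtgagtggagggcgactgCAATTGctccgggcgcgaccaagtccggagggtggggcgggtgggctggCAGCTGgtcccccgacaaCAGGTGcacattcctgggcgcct
Runx1: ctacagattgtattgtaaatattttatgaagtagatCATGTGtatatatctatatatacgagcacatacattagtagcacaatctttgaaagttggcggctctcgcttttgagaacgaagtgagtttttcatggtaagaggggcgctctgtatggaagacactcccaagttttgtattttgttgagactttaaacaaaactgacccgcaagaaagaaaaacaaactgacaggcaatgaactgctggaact
There were 2 matches before Myog, 3 before Musk, 3 before Chrnb1 and 1 before Runx1. The form CAGCTG was found before Musk and Chrnb1 alone among these 4. CANNTG is common, being present in 65.5% of all 33469 windows of that length (3 or more times in 11.5%), and CAGCTG in 12.0%. A match is therefore a description of the letters and not of a bound site. On the neuromuscular list 17 of 23 genes had a window, and 15 of these held a CANNTG. A gene was counted if any of its windows held a match, so this count per gene cannot be set against the share of single windows.

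Metallothioneins, small proteins that bind zinc and copper and are induced by metals, glucocorticoids and inflammation, gave the largest difference among the genes called at day 3. Mt2A was at 25.65, 30.1, 28.47 and 23.88 TPM in non-running muscles, a narrow range, and at 205.9, 183.6, 57.33 and 51.19 TPM in running ones. The 2 NoRepair rats (001 and 002) were the high pair and the 2 MMG rats (005 and 006) the low pair, and all 4 were above the non-running muscles (1.90 ± 0.43, adjusted p = 0.0299). Mt1 had the same 2 high muscles, with 174.1, 94.69, 18.09 and 30.02 TPM against 11.93 to 18.6 TPM, but its groups overlapped and it missed the threshold (1.87 ± 0.49, adjusted p = 0.0552). The window before Mt2A (chr19:10838709-10838958, minus strand) is shown with the cores of metal response elements, TGCACNC or TGCGCNC on either strand, in capitals.
Mt2A: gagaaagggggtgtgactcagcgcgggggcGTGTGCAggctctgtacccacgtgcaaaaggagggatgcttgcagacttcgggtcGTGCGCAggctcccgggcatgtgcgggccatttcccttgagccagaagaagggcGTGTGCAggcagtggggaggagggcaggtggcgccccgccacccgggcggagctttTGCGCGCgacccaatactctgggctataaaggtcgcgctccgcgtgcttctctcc
It held 4 of these cores, the nearest 48 bases before the start. Of all windows, 20.6% held at least 1 and 1.17% held 3 or more. Metallothionein genes are near-copies of each other, so reads may have been shared among them. Of 30 tested genes on the glucocorticoid and atrophy list, Mt2A alone passed at day 3, where 0.708% of all tested genes passed upward, and the list's median was 0.01. Under median-of-ratios scaling 2 of its genes passed upward, beside 189 of all 9996 tested genes. The ubiquitin ligases Fbxo32 and Trim63, which mark fibre protein breakdown, were at 213.9 to 452.6 and 325.9 to 448.4 TPM without running and at 263 to 550.8 and 290.9 to 808.7 TPM with it, overlapping in both cases (0.23 ± 0.26 and 0.57 ± 0.22, adjusted p = 0.791 and 0.223).

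Cryab and Hspb8, small heat shock proteins, and Sln and Mrln, which act on the calcium pump, passed the adjusted p upward at day 3. Cryab, a chaperone of the sarcomere, was at 1543, 1502, 1263 and 1447 TPM against 4442, 3080, 2375 and 2335 TPM in running muscle (1.04 ± 0.17, adjusted p = 0.00384). Its partner Hspb8 was at 454.1, 453.4, 444.6 and 397.9 TPM against 811.1, 729.8, 711 and 568.9 TPM (0.68 ± 0.09, adjusted p = 0.00106). Neither gene's groups overlapped. These were the 2 of 40 tested genes of the heat shock list that passed, beside 0.708% of all tested genes that passed upward, and the list's median was 0.12, with 30 of 40 members above 0. Sln, or sarcolipin, which uncouples the calcium pump of the sarcoplasmic reticulum, was at 72.92, 106.9, 96.59 and 128.2 TPM without and at 283.1, 190.9, 232 and 184.4 TPM with running (1.14 ± 0.28, adjusted p = 0.0397). Mrln, or myoregulin, another small inhibitor of that pump, rose from 116.1 to 144.5 TPM to 193.5 to 261.6 TPM (0.82 ± 0.18, adjusted p = 0.0222). On the calcium handling list 3 of 38 tested genes passed upward and 0 downward, beside 0.708% and 0.523% of all tested genes. Under median-of-ratios scaling 3 and 2 did, beside 189 and 244 of all 9996 tested genes. On this list 6 genes lay wholly higher and 5 wholly lower, where 3.19% and 6.63% of all tested genes did, and the median was -0.01. On the muscle stress list 4 of 18 passed upward (Gadd45a, Cdkn1a, Runx1 and Sln) and 0 downward, where 0.708% and 0.523% of all tested genes did, with a median of 0.32 that was 0.11 without rat 001. Mustn1, a small nuclear protein induced in remodelling muscle, was at 136.9 to 356 TPM against 221.6 to 2008 TPM, where 1 running muscle, that of rat 001, set the top, and it did not pass (1.60 ± 0.44, adjusted p = 0.0693).

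The other genes called higher at day 3 have varied functions. Slco4a1, an organic anion transporter, was at 1, 0.85, 1.61 and 1.93 TPM against 4.29 to 7.21 TPM (1.43 ± 0.22, adjusted p = 0.0019). Slc51a, a subunit of a steroid and bile acid transporter, was at 1.97 to 2.55 TPM against 5.58 to 17.23 TPM (1.76 ± 0.33, adjusted p = 0.00999). Lipg, the endothelial lipase, was at 1.56 to 3.6 TPM against 4.46 to 12.51 TPM (1.31 ± 0.22, adjusted p = 0.00384). None of these 3 overlapped between groups. Ampd3, an AMP deaminase, reached 11.18, 18.56 and 22.44 TPM in 3 running muscles but only 4.6 TPM in that of rat 006, inside the non-running range of 3 to 4.95 TPM (1.41 ± 0.29, adjusted p = 0.0153). The alpha tubulin Tuba4a, whose near-copies may share reads, rose from 370.2 to 594.9 TPM to 719.5 to 1097 TPM (1.01 ± 0.17, adjusted p = 0.00396). The remaining 8 had log2 differences between 1.01 and 1.52. They were Emb (embigin, a partner of monocarboxylate transporters), Ppp1r14c and Ppp1r27 (regulators of protein phosphatase 1), Gstt4 (a glutathione transferase), Faah (fatty acid amide hydrolase), Cidea (a lipid droplet protein), Ttc9 and LOC498675. Of the 25 called genes, 22 had groups without overlap, where 3.19% of all tested genes lay wholly higher and 6.63% wholly lower in running muscle.

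At day 3, 3 genes were called lower. Irs2, an adaptor of the insulin receptor, was at 5.58, 11.83, 7.41 and 13.86 TPM without running and in a narrow band of 3.14, 3.88, 3.12 and 4.18 TPM with it (-1.15 ± 0.24, adjusted p = 0.0196). Sec14l5, a phosphatidylinositol transfer protein homologue, was at 14.17, 16.48, 12.32 and 17.4 TPM against 6.34, 5.16, 7.6 and 8.08 TPM (-1.05 ± 0.18, adjusted p = 0.00413). The groups did not overlap for either gene. RT1-T24-3, a class I histocompatibility gene of a multigene family whose members may share reads, was at 16.46 to 38.96 TPM against 7.82 to 19.22 TPM, with the non-running muscle of rat 017 inside the running range (-1.08 ± 0.24, adjusted p = 0.0283).

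The number of genes called at day 3 depended on single muscles. It was 12 without rat 001, 39 without rat 006, 11 without the non-running rat 013 and 13 without rat 014, and lay between 18 and 33 when any other muscle was left out. Without rat 017, whose neutrophil markers were low, 33 genes were called and 19 of the 25 were among them. Gadd45a, Musk, Slco4a1, Myog and Cdkn1a were called in each of the 8 other settings run and with each of the 22 muscles left out in turn. Only the 4 running and 4 non-running muscles of day 3 enter the day 3 means. The other muscles left out, 4 running and 10 non-running ones of day 7, affect only the shared spread and the genes tested. Other calls held less often: Sln in 4 of the 8 settings and 14 of the 22 fits with a muscle left out (adjusted p = 0.0565 under median-of-ratios scaling), Emb in 4 and 15, Cidea in 4 and 17, Mt2A in 5 and 16, Ppp1r14c in 5 and 17 and LOC498675 in 5 and 19. Red cell marker sums reached higher in running muscle at day 3 (5320 to 53590 TPM against 1272 to 9671 TPM), and their part in these results was not tested.

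**Figure D2:**
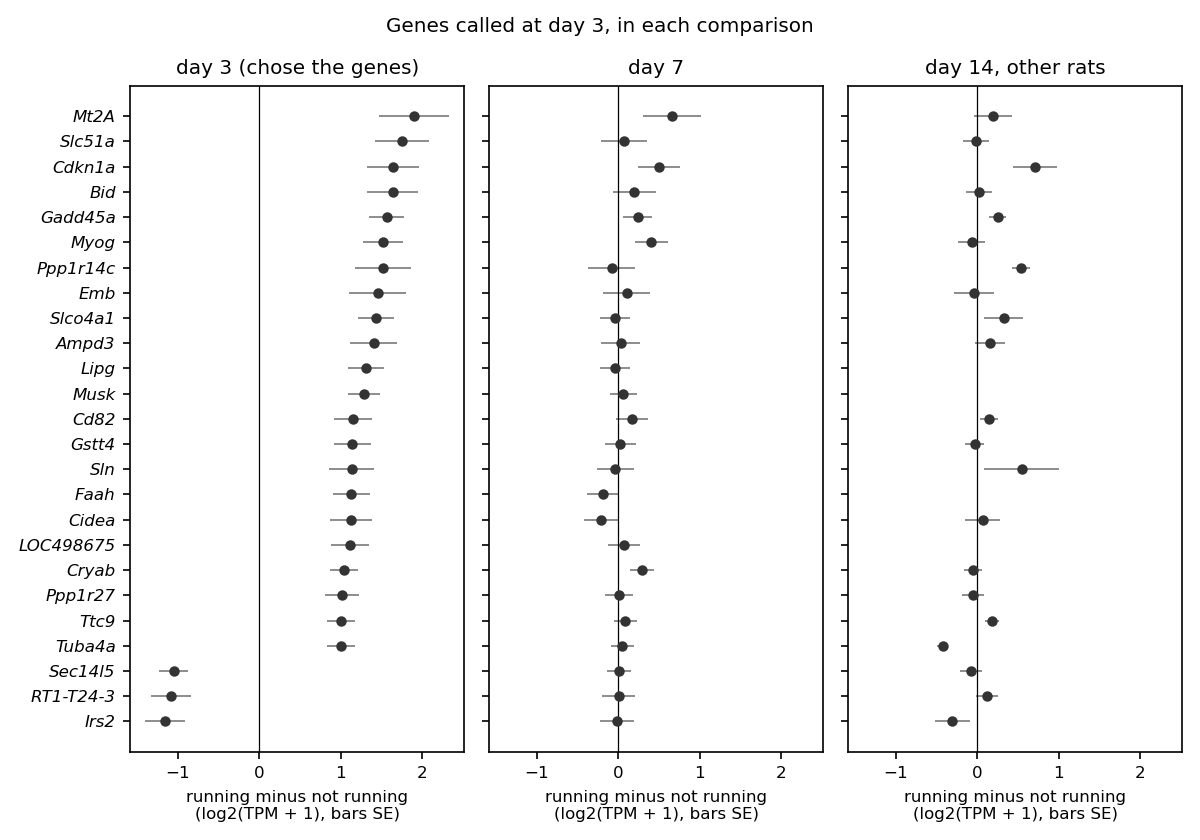
Difference between running and non-running contralateral muscle on the log2(TPM + 1) scale (horizontal axes, points; bars are SE) for the 25 genes called at day 3, at day 3, at day 7 and, in other rats, at day 14; genes without a point at day 14 were below the filter there. All 25 are nearer to 0 at day 7 than at day 3, where they were chosen, and none passed at day 7 or 14.

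Genes of glucose use lay lower in running muscle at day 3, by small amounts. Pfkm, the muscle phosphofructokinase that commits glucose to glycolysis, was at 2901, 3084, 3106 and 2958 TPM without and at 2377, 2416, 2178 and 2306 TPM with running (-0.38 ± 0.07, adjusted p = 0.00999). Slc2a4, the insulin-responsive glucose transporter GLUT4, was at 402.7, 388.8, 381.2 and 390 TPM against 307.9, 294.8, 261.2 and 275.3 TPM (-0.46 ± 0.09, adjusted p = 0.0153). Both sets of values were tight and did not overlap. On the glycolysis and glycogen list 4 of 31 tested genes passed the adjusted p downward (also Phkg1 and Pfkfb1) and 0 upward, where 0.523% and 0.708% of all tested genes did. On it 11 genes lay wholly lower, beside 6.63% of all tested genes, and the median was -0.28. All 19 tested genes of the tricarboxylic acid cycle were below 0 at day 3, with a median of -0.24 and 0 passing. Of 66 tested genes of oxidative phosphorylation 2 passed downward (Ndufs7 and Atp5a1; 0 under median-of-ratios scaling), again beside 0.523% of all tested genes, with a median of -0.08. Slow and fast fibre markers had medians of -0.06 and -0.12. Of the 20 slow fibre markers 9 were above 0 and 1, Cryab, passed upward, beside 0.708% of all tested genes. Of the 19 fast fibre markers 6 were above 0 and 0 passed.

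Blood vessel and interferon genes also lay lower at day 3. All 28 tested endothelial markers were below 0, with a median of -0.27, though 0 passed (5 under median-of-ratios scaling, where 244 of all 9996 tested genes passed downward). Their sum ranged from 285.5 to 360.1 TPM in running and from 341.5 to 439.2 TPM in non-running muscles, which overlapped, whereas their mean log2(TPM + 1) per muscle did not (3.15 to 3.32 in running and 3.40 to 3.73 in non-running muscles). Of 36 tested interferon-response genes 34 were below 0, the median was -0.44 and 1 passed downward, beside 0.523% of all tested genes. Under median-of-ratios scaling 6 did, beside the same 244 of 9996. The list's mean log2(TPM + 1) per muscle overlapped between groups (2.60 to 3.19 in running and 2.65 to 3.66 in non-running muscles). The member that passed was Oas1a, an RNA-sensing synthetase, at 4.86, 3.22, 4.01 and 1.68 TPM against 0.82, 2.41, 1.51 and 1.3 TPM, with rat 017 inside the running range (-0.80 ± 0.20, adjusted p = 0.0433). Leaving out any 1 day 3 muscle moved the interferon median between -0.60 and -0.31 and the endothelial one between -0.36 and -0.20. On the circadian list 4 of 15 tested genes were above 0 at day 3, the median was -0.19 and 0 passed, with 2 passing downward under median-of-ratios scaling. The list's mean log2(TPM + 1) was lower in every running muscle (4.25 to 4.42 against 4.43 to 4.63). Its member Ciart, a repressor of the molecular clock, was at 4.13 to 11.27 TPM against 1.26 to 3.31 TPM without passing (-1.28 ± 0.33, adjusted p = 0.0552); the hour of tissue collection is not given in the sources used here.

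Most genes of the ribosome and proteasome lists were above 0 at day 3, and few passed. Of 75 tested genes of the cytosolic ribosome 74 were above 0, beside 46.0% of all tested genes, with a median of 0.26, and 2 passed (Rpl23 and Rps25), beside 0.708%, where median-of-ratios scaling gave 0. Of 31 tested proteasome genes 28 were above 0, with a median of 0.19 and 0 passing. The mean log2(TPM + 1) per muscle overlapped between groups for both lists, and for the proteasome list the lowest of the 8 muscles was a running one (7.50 to 8.06 in running and 7.53 to 7.88 in non-running muscles). At day 7 the ribosome and proteasome medians were 0.03 and 0.05, and both turned to below 0 under median-of-ratios scaling (-0.08 and -0.05). Ribosomal protein genes have many near-identical pseudogenes, so their reads may have been shared.

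**Figure D3:**
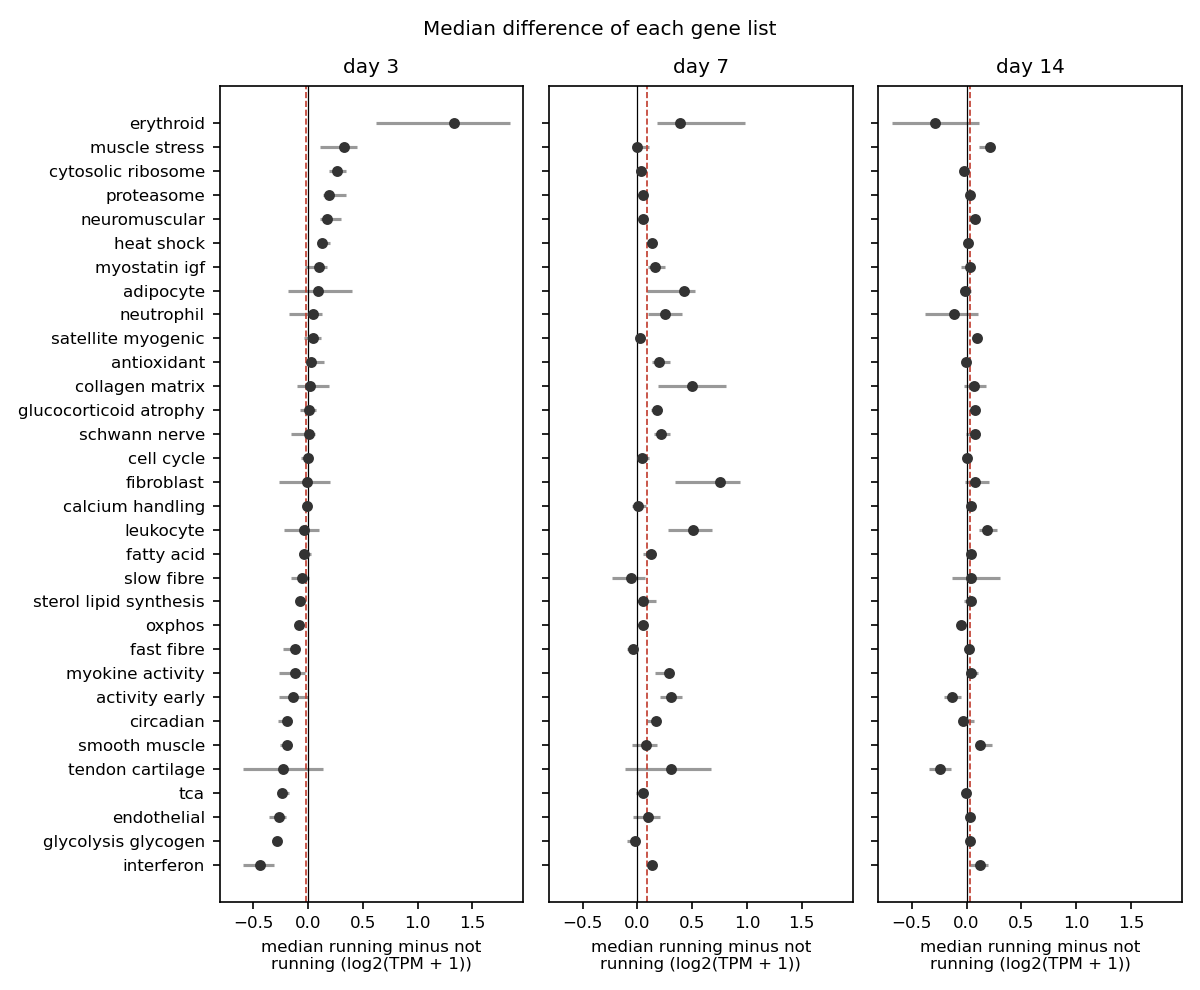
Median difference between running and non-running contralateral muscle over the tested genes of 32 gene lists (log2(TPM + 1) scale, points) at days 3, 7 and 14; grey lines span the medians found when each muscle of that day was left out in turn, and the red dashed line is the median of all tested genes. At day 3 the interferon list lies at -0.44 and the erythroid list at 1.33; at day 7 the fibroblast, leukocyte and collagen lists lie at 0.75, 0.51 and 0.50.

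At day 7 the highest list medians were those of connective tissue and immune cells. Fibroblast markers had a median of 0.75, with 22 of 23 tested genes above 0, leukocyte markers 0.51 and collagen and matrix genes 0.50, beside 0.09 over all tested genes, of which 77.2% were above 0 (50.6% under median-of-ratios scaling), and no gene of these lists passed. Mfap5, a microfibril protein of fibroblasts, was at 35.76, 23.76, 54.38 and 15.09 TPM in running muscles, and at 10 TPM at the lowest, 14.4 TPM at the median and 19.91 TPM at the highest in the 10 non-running ones (1.00 ± 0.28, adjusted p = 0.274). Col3a1, a fibrillar collagen, was at 248.3, 113, 570.5 and 157.6 TPM against 74.58 to 190.2 TPM (0.89 ± 0.29, adjusted p = 0.317), and C1qb, a complement component made by macrophages, at 32.74, 19.61, 38.18 and 14.26 TPM against 9.79 to 16.65 TPM (0.88 ± 0.24, adjusted p = 0.274). The muscle of rat 007 was the highest for all 3 genes and that of rat 008 was inside the non-running range for all 3. Summed fibroblast markers were 2336, 1220, 4242 and 1238 TPM in the running muscles and 670 to 1666 TPM in the others, and without rat 007 the fibroblast median was 0.34, the leukocyte median 0.28 and the collagen and matrix median 0.19. Adipocyte markers had a day 7 median of 0.42, with 12 of 13 tested genes above 0 and 0 passing, and one of 0.09 without rat 007. The red cell list had a median of 0.39, with 0 of 11 passing, and one of 0.18 without rat 004 and 0.98 without rat 008.

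Immediate early and other activity-regulated genes, 36 of them tested, had a median of 0.31 at day 7, with 34 above 0, beside 77.2% of all tested genes, and 0 passing. Fos, the prototype of the class, was at 15.45, 5.97, 5.1 and 6.45 TPM in running muscle against 1.63 to 7.53 TPM, a range whose top was 1 muscle (1.13 ± 0.54, adjusted p = 0.422). Dusp1, a phosphatase of MAP kinases, was at 68.79, 66.19, 45.66 and 60.1 TPM against 19.03 to 52.38 TPM (0.85 ± 0.29, adjusted p = 0.329). At day 3 the same list had a median of -0.14, with 12 of 36 genes above 0, and at day 14 one of -0.13. Of its genes 1 passed higher at day 3 (Gadd45a) and 1 lower (Irs2), where 0.708% and 0.523% of all tested genes did. The day 3 median was -0.0041 without rat 005 and -0.26 without rat 006, and the day 14 one -0.047 without rat 135 and -0.21 without rat 133. At day 7, 0.523% of all tested genes lay wholly higher in running muscle and 0% wholly lower. Of the 1145 genes at an unadjusted p under 0.05 at day 7, 1052 were higher and 93 lower; under median-of-ratios scaling these were 848 and 623.

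None of the 25 genes called at day 3 had groups without overlap at day 7, and none had an unadjusted p under 0.05 there. At day 7 Myog was at 18.19, 17.57, 16.58 and 10.43 TPM in running and 7.89 to 18.36 TPM in non-running muscles (0.41 ± 0.21, adjusted p = 0.452). Gadd45a was at 55.8, 61.32, 53.4 and 44.63 TPM against 25.95 to 59.97 TPM (0.24 ± 0.18, adjusted p = 0.612), and Musk at 0.71 to 1.35 TPM against 0.47 to 2.2 TPM. The change of difference from day 3 to day 7 was -1.33 ± 0.28 for Gadd45a and -1.22 ± 0.26 for Musk, each with an adjusted p of 0.0772.

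With both days in 1 model, 2 genes passed the adjusted p, neither by the fold limit. Sec61g, a subunit of the channel that carries new proteins into the endoplasmic reticulum, was at 164.1 to 201.3 TPM against 225.8 to 311.6 TPM with running at day 3, and at 169.8 to 214.1 TPM against 216.6 to 277.3 TPM at day 7. The groups did not overlap on either day, and the difference was 0.41 ± 0.07 (n = 8 and 14, adjusted p = 0.0271). Srpx, a secreted sushi-repeat protein, was at 12.64 to 18.16 TPM against 17.47 to 25.61 TPM at day 3 and at 7.49 to 11.95 TPM against 12.99 to 24.5 TPM at day 7, where the groups did not overlap (0.61 ± 0.11, adjusted p = 0.0438). Sec61g no longer passed under median-of-ratios scaling (0.35, adjusted p = 0.0726), and Srpx did (0.56, adjusted p = 0.0141). In that scaling 31 genes passed the adjusted p higher and 69 lower, in place of 2 and 0, and at day 3 189 and 244, in place of 69 and 51.

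The genes next in order did not pass and are given as values. Under median-of-ratios scaling Rbp7, Abhd2, Magoh, Tp63, Traf3ip3, Sppl2a, Synpo, Sema6c and Susd4 did pass the adjusted p, at 0.0142 to 0.0402. On the higher side were the splicing and export factors Bud31 (0.35), Snrpf (0.38) and Magoh (0.34), Mrln (0.59), the ribosomal protein Rplp1 (0.34), Rbp7 (a retinol-binding protein, 0.62), Myog (0.86), Cryab (0.60), Abhd2 (0.48), Tp63 (0.53), Traf3ip3 (0.39), Calm2 (0.31) and the protease Sppl2a (0.51), with adjusted p from 0.0818 to 0.112. On the lower side were the glycolytic enzymes Aldoa (-0.35) and Pfkm (-0.22), the lactate exporter Slc16a3 (-0.37), alpha-actinin 3 (Actn3, -0.37), the calcium pump Atp2a1 (-0.26), its luminal partner Hrc (-0.30) and the mitochondrial iron importer Slc25a28 (-0.36). Trim54 (-0.30), Masp1 (-0.31), Synpo (-0.41), Sema6c (-0.36), Adck3 (-0.36), Susd4 (-0.54) and Abhd8 (-0.25) followed, with adjusted p from 0.0818 to 0.132. Aldoa was at 17040, 19970, 18480 and 19690 TPM without and at 11930, 12360, 15750 and 15470 TPM with running at day 3, and at 15430 to 22380 TPM against 13770, 13820, 16900 and 17820 TPM at day 7. Its groups overlapped at day 7 and not at day 3. The differences of the genes named over both days kept one sign at day 3 and day 7, but the days were pooled to choose them.

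**Figure D4:**
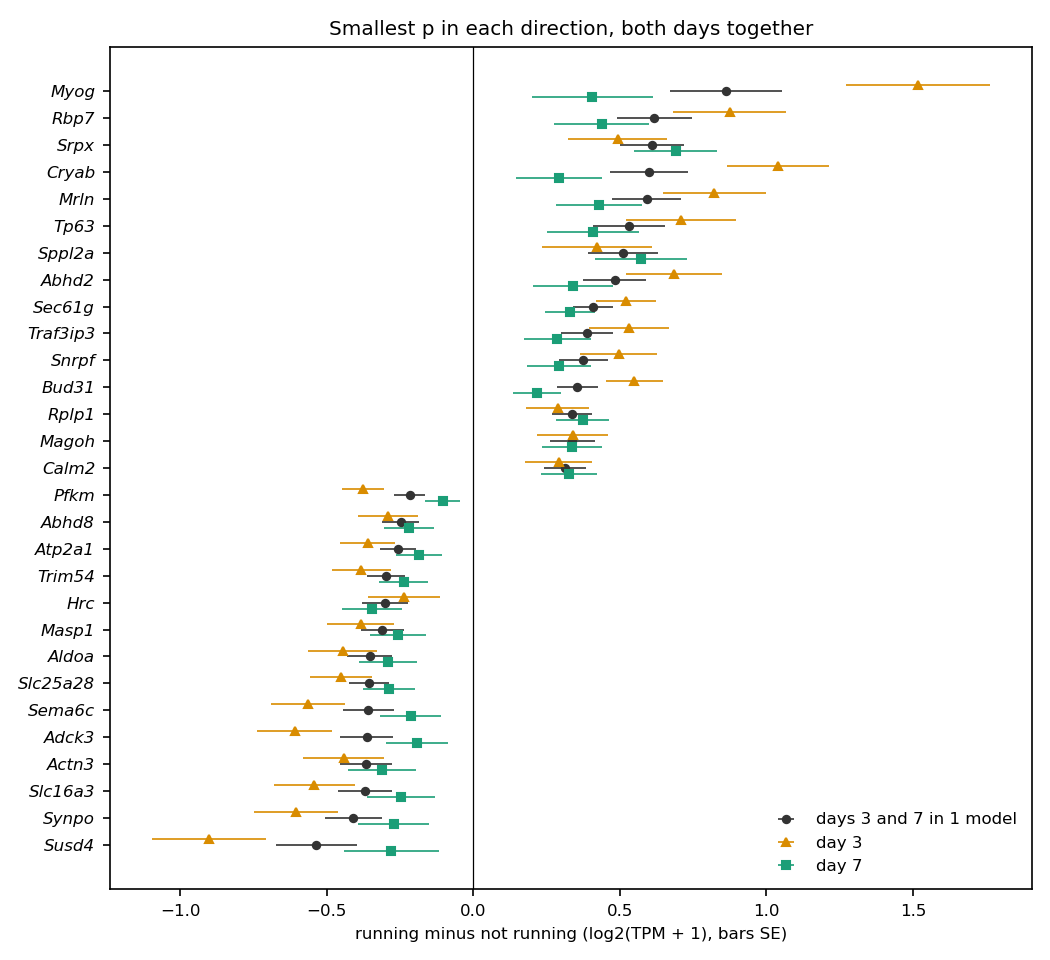
Difference between running and non-running contralateral muscle (log2(TPM + 1) scale, bars are SE) for 15 genes higher and 14 lower, those of smallest p when both days are in 1 model (circles), with the same difference at day 3 (triangles) and at day 7 (squares). Myog has the highest pooled difference of these 29, 0.86, and Susd4 the lowest, -0.54.

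Contralateral muscles at day 14 came from other rats, 4 that ran and 4 that did not, and took no part in choosing these genes. No gene passed there (0 of 9201, 0%), with 536 at an unadjusted p under 0.05, and 2.38% of genes lay wholly higher and 0.728% wholly lower. Of the 25 genes called at day 3, 21 were tested at day 14 and 13 of them had the same sign. Cdkn1a was at 3.92 to 4.86 TPM without and at 5.1 to 16.48 TPM with running, without overlap (0.71 ± 0.27, unadjusted p = 0.0236, adjusted p = 0.833). Ppp1r14c was also wholly higher, at 1.5 to 2.04 TPM against 2.4 to 3.39 TPM (0.53 ± 0.11, adjusted p = 0.608), and Tuba4a was wholly lower, the opposite of day 3, at 649.5 to 767.3 TPM against 490.8 to 588.4 TPM (-0.43 ± 0.07, adjusted p = 0.357). Myog was at 10.92 to 14.8 TPM against 10 to 17.93 TPM, and Gadd45a at 23.41 to 26.59 TPM against 23.85 to 36.03 TPM.

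In injured muscle of the same days, tested in 48 muscles with day and repair as covariates, 0 of 11036 genes passed both limits (0%) and 38 passed the adjusted p (0.344%), 15 higher and 23 lower (367 and 371 under median-of-ratios scaling). These muscles include the other leg of the rats above, so the comparisons are not independent. Of the 25 genes called at day 3 none passed in injured muscle, and 7 had the same sign as at day 3. At an unadjusted p under 0.05, 2 had the same direction and 6 the opposite one. Gadd45a had a difference of -0.37 ± 0.18 there, Myog of -0.22 ± 0.14, Musk of -0.15 ± 0.14 and Mt2A of 0.28 ± 0.13, with adjusted p from 0.199 to 0.534. Of the genes named over both days together, Magoh (0.24), Sppl2a (0.28) and Slc25a28 (-0.18) passed the adjusted p in injured muscle, all with adjusted p of 0.048.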

How the data were processed

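RNA of whole rat TA muscle was sequenced from TruSeq libraries. The authors pseudo-aligned the reads to rat genome build 6.0 with Kallisto and deposited TPM per gene symbol (the submitters' processing notes also name DESeq). Counts were not used here, so the depth behind each value is unknown. The table was read up to Tubb3 (16181 symbols; 1 incomplete line left out), and later symbols were not analysed here.

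Columns were joined to labels by name. One contralateral library of rat 011, whose day label conflicts with that of its other library, was skipped. Of the other contralateral libraries of days 3 and 7, 5 fell below 7000 symbols above 1 TPM. This left the contralateral muscles of rats 011 and 012 without a library. Genes with a mean above 1 TPM in at least 1 group of day and running were tested with limma 3.58.1 (R 4.3.3). Values were log2(TPM + 1), the prior variance followed mean expression, and p-values were adjusted by Benjamini-Hochberg over all tested genes. The study's own limits on adjusted p and fold change defined a call. The code was tested on simulated data. Day 3, day 7 and their difference came from 1 model with 18 residual degrees of freedom, and day 14 and injured muscle from models of their own.

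By a written rule, the text names the 15 genes with the smallest p in each direction over both days, the 5 with the smallest p in each direction among genes called at day 3, and list members as examples. One of the 15 lower genes and 1 list example are not reported here. Naming all 25 genes called at day 3 goes past that rule and was decided after their values were seen, as was the choice of examples. The members and lists were chosen with earlier results of these data known. Promoters came from RefSeq (GRCr8), where 17 of the 25 called genes had a window. Alternatives covered the pseudocount, filter, scaling, covariates, libraries and each muscle left out. Figures were drawn with matplotlib 3.10.9.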

Additional observations from a re-analysis of the deposited data

Results flagged for a closer look

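In 38 of 368 groups of 4 to 10 muscles, over 72 named genes, the highest or lowest muscle stood apart from the others of its group by Dixon's criterion (10.3%, where chance gives about 1 in 20). The genes were named partly for their differences, so the share is not independent of that choice. The criterion was applied to TPM without logs and its limits assume normally distributed values, so the rate of 1 in 20 may not hold here.

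Among day 3 muscles, the running rat 006 stood apart, as the highest unless said otherwise here and after, for Fos (68.71 TPM) and, as the lowest, for Magoh (37.62 TPM), and the running rat 005 for Chrna1 (24.78 TPM) and, as the lowest, C1qb (18.6 TPM). The running rat 001 stood apart for Cidea (24.61 TPM). Of the non-running muscles, rat 013 stood apart for Trim54 (601.5 TPM) and Trim63 (448.4 TPM), and rat 017 was the lowest for Hspb8 (397.9 TPM).

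At day 7 the non-running rat 016 stood apart for the receptor subunits Chrnd (28.08 TPM) and Chrna1 (25.69 TPM), for Musk (2.2 TPM), Faah (2.02 TPM) and Slc51a (10.55 TPM). The non-running rat 106 was the lowest for Magoh (21.81 TPM) and stood apart for Ampd3 (3.5 TPM), Emb (5.37 TPM), Mt2A (25.73 TPM) and Mt1 (12.21 TPM). Other non-running muscles were rat 107, the lowest for Trim54 (377.7 TPM), rat 125 for Irs2 (7.1 TPM) and Fos (7.53 TPM), and rat 127 for Oas1a (2.12 TPM). Of the running muscles, rat 007 was the lowest for Tp63 (8.51 TPM) and stood apart for Cidea (3.63 TPM), rat 004 for Sln (161.8 TPM) and rat 003 for Fos (15.45 TPM).

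At day 14 the running rat 136 stood apart for Cryab (928.5 TPM), Cdkn1a (16.48 TPM), Sln (108.3 TPM), Chrnd (8.48 TPM), Ncam1 (4.47 TPM) and Mt1 (12.11 TPM). The non-running rat 135 did so for RT1-T24-3 (11.59 TPM), Cd82 (7.59 TPM), Chrnb1 (24.8 TPM), Fos (10.27 TPM) and, as the lowest, Chrnd (2.16 TPM). The non-running rat 133 stood apart for Gadd45a (26.59 TPM).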

How the results depend on the processing

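Over both days 0 genes were called. The count was 2 with the adjusted p alone, 2 with all libraries kept, 2 in NoRepair rats alone and 5 with all mapped muscles in 1 model. Leaving out each muscle in turn gave 0 to 6, with 6 without rat 008. At day 3 the 25 calls became 120 with the adjusted p alone and 16 with day 3 muscles alone in the model, and 11 to 39 with a muscle left out. At day 7 the 0 calls became 0 to 4, with 4 without rat 008. For the difference between the days, 0 became 6 under median-of-ratios scaling, 1 with day and repair as covariates and 0 to 12 with a muscle left out, with 12 without rat 006. At day 14, 0 became 0 to 1, with 1 without rat 134. In injured muscle, 0 became 38 with the adjusted p alone and 1 with ribosomal RNA genes removed. The difference of Hrc over both days turned to 0.039 with all libraries kept. The causes were not tested. The other settings kept these counts within 1.5 times. The fits of day 3 muscles alone, and without rat 017 under median-of-ratios scaling (33 calls), were added after seeing the data. Each library as its own sample gave the same result, since every contralateral muscle had 1 library. A fit without rat 011 was not run, since no contralateral library of it remained. No paired analysis was possible because no rat was on both sides. TPM keeps no depth, so counting error is unknown.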
